A study of Homo sapiens with 8 samples.

Results

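The ZNF genes are a large family of human genes, most of which encode proteins with C2H2 zinc fingers. All peaks whose gene name began with ZNF and a number were taken from the 4 lists of N6-methyladenosine (m6A) peaks of HCT116 cells. They came to 3486 of the 70751 peaks in the lists, or 4.93%. Peaks on the same strand whose exon blocks shared at least 1 bp were merged across lists, which gave 1018 ZNF regions among 22001 regions of all genes. The ZNF peaks carried 373 gene names, of which 6 were readthrough names, 4 antisense names and 6 pseudogene names. In 9 regions a ZNF name and the name of another gene were merged together.

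HCT116, a human colorectal carcinoma line, was incubated with PBS (Control) or with Fusobacterium nucleatum, a bacterium found in colorectal tumours, and poly(A) RNA was sequenced before (input) and after (IP) pull-down with an m6A antibody. The 8 samples were 2 input and 2 IP libraries of each treatment. No other line, genotype or agent was included, so all values describe a single line. Each peak list belonged to 1 IP library, and expression was given as FPKM, fragments scaled by transcript length and by total mapped fragments, for the 4 input libraries. The study describes 2 biological replicates, while the labels do not say whether they were separate cultures. The p-values thus measure the spread between these libraries, part of which may be technical. Among 7 markers of colorectal epithelium, KRT8 was highest, at 1941 to 2286 FPKM, and VIL1 stayed under 1 FPKM. Of 7 markers of blood, endothelial and stromal cells, 6 stayed under 1 FPKM in every library, the exception being COL1A1 at 3.78 to 5.72 FPKM. The number of mapped reads was unknown for all libraries.

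m6A is a methyl group placed on adenosines of mRNA, mostly by a METTL3-containing complex acting at the DRACH consensus, of which GGAC is the best known core. In mRNA the mark is known to gather in long internal exons, near stop codons and in 3′UTRs. Most ZNF proteins are DNA-binding repressors. Many carry a KRAB domain that recruits the cofactor TRIM28, and their tandem fingers are usually encoded by a single long last exon. Neighbouring fingers are joined by a short conserved linker.

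The finger repeat is shown first because it made up much of the sequence under ZNF peaks. In DRACH the letter D stands for any base but C, R for a purine and H for any base but G. Fingers were found in the translated canonical transcripts as a pair of cysteines with 2 residues between them, 12 residues, and a pair of histidines with 3 or 4 residues between them. Of 280 ZNF genes whose FPKM averaged 1 or more over the input libraries, called expressed here, 277 had a canonical coding transcript and 242 of these encoded at least 3 fingers, with a median of 10 and a maximum of 31. In 33 of the 242 genes the whole finger array lay under a peak in all 4 lists. The sequences below are from the 5 most highly expressed of these that had a repeat unit of 84 nt within an exon. For ZNF146, whose p-values were listed at 0, 3 units in a row are shown, and for the others the unit nearest the middle of the array. All are coding sequence on GRCh37 (hg19), given 5′ to 3′ on the strand of the gene, with DRACH matches in capitals:
ZNF146, chr19:36727646-36727897, plus strand: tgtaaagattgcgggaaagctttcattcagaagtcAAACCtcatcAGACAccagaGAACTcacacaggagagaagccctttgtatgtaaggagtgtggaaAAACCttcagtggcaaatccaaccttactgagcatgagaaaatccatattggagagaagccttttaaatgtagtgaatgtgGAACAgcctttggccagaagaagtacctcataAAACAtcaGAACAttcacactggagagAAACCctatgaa
ZNF24, chr18:32917379-32917462, minus strand: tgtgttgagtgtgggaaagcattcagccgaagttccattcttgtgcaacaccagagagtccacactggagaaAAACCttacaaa
ZNF263, chr16:3339980-3340063, plus strand: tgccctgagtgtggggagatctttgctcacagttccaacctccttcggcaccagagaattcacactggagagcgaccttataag
ZNF121, chr19:9676934-9677017, minus strand: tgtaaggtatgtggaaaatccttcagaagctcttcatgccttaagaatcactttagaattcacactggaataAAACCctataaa
ZNF22, chr10:45499153-45499236, plus strand: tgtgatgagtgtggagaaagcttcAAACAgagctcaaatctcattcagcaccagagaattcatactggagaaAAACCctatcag

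These stretches held 0 GGAC. The ZNF146 stretch held 8 DRACH matches, of which 3 were AAACC. In ZNF24, ZNF121, ZNF22 and at the end of the ZNF146 stretch an AAACC lay in the linker, over its codons for lysine and proline. The ZNF263 unit had no DRACH match although it too lay under a peak in every library. At ZNF263, however, every position of the array began a run of 50 nt also found in the transcript of another gene, so its reads could be counted at either, whereas the other 4 arrays had no such position. A match describes letters only and does not mark a methylated base.

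The first comparison asked how often an expressed ZNF gene carried m6A. Nearly all did. A peak was found in some list for 277 of 280 expressed ZNF genes (98.9%), against 9027 of 10808 other genes (83.5%). A peak was present in all 4 lists for 259 ZNF genes and for 7357 other genes. By library the ZNF share was 96.4% and 96.8% in the Control pair and 95% and 96.8% in the treated pair. Among other genes it was 74.4% and 76.7%, and 77.1% and 74.7%. Where 4 values follow each other below, they are given in the order Control 1, Control 2, F. nucleatum 1, F. nucleatum 2. The ranges did not overlap, and the ZNF share was higher in each of the 4 libraries, by 20.5 ± 2.03 percentage points (SD, n = 4 libraries). Swapping the classes within libraries gave a two-sided exact permutation p of 0.125, the smallest that 4 libraries allow, so no such comparison here could pass 0.05.

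The difference was widest among weakly expressed genes. Between 0.3 and 1 FPKM, 74 of 80 ZNF genes had a peak in some list (92.5%), against 52.7% of 1269 other genes. Between 0.1 and 0.3 FPKM the share was 10 of 20 ZNF genes and 15.4% of 945 other genes. Below 0.1 FPKM peaks were rare in both classes, with 1 of 138 ZNF genes and 57 of 5935 other genes. At 10 FPKM and over, 97.5% of 40 ZNF genes and 84.2% of 5304 other genes had a peak. ZNF genes were themselves weakly expressed, with a median of 3.17 FPKM among the 280, against 9.74 FPKM among the 10808 others. FPKM from a low number of fragments are imprecise, and the number behind each value was unknown.

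**Figure D1:**
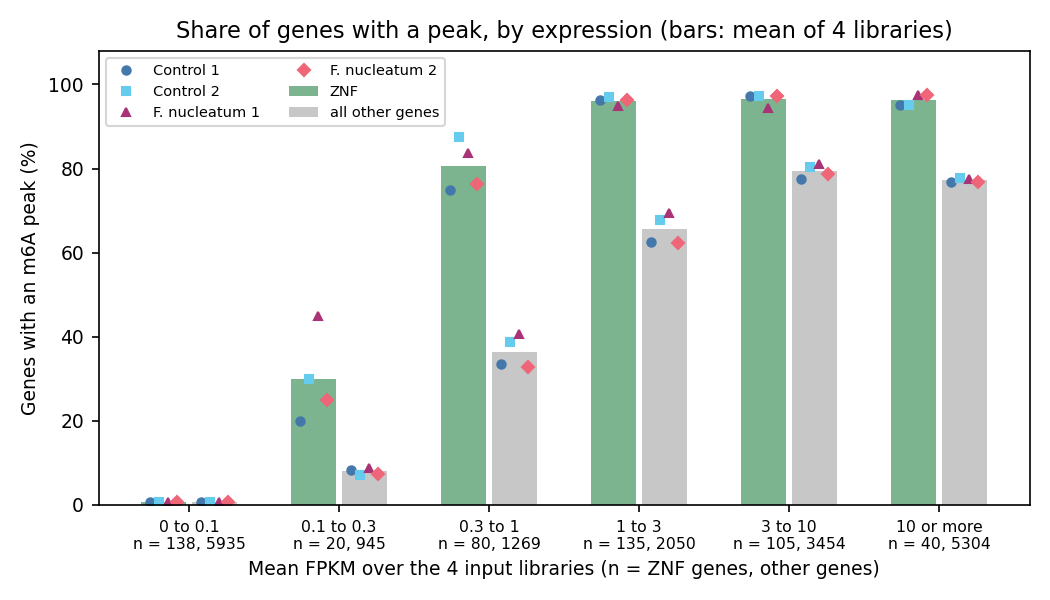
Share of genes with an m6A peak (vertical axis, %) by mean input FPKM (horizontal axis), for ZNF genes (green bars, left of each pair) and all other genes (grey bars). Bars are the mean of 4 libraries and each symbol is 1 library; between 0.3 and 1 FPKM the ZNF symbols lie from 75% to 87.5% and those of other genes from 32.8% to 40.6%.

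Exon length was set beside this result, since ZNF genes have long last exons. The longest exon had a median of 2882 nt in the 277 ZNF genes and 1580 nt in 10399 other genes, and ZNF transcripts had a median of 5 exons against 9. The longest coding stretch within an exon held a median of 83.3% of the coding sequence in ZNF genes and 24.1% in the others. Among genes between 1 and 10 FPKM whose longest exon measured 2000 to 4000 nt, 104 of 106 ZNF genes (98.1%) and 89.5% of 1630 other genes had a peak in some list. At 4000 nt and over, the counts were 79 of 79 ZNF genes and 90.8% of 1159 other genes. At 1000 to 2000 nt, they were 47 of 47 and 85.2% of 1272. Within these 3 bands the ZNF share was thus higher by 8.60 to 14.8 percentage points. The part of exon length in the result was not otherwise tested.

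Other families of finger genes were as often marked. The share of expressed genes with a peak was 95.5% ± 1.75 (SD, n = 4 libraries) for 33 ZBTB genes, which join fingers to a BTB domain, and 100% in every library for 19 ZSCAN and ZKSCAN genes, which carry a SCAN domain, and for 9 ZFP genes. ZNF genes stood at 96.3% ± 0.852 and differed from ZBTB genes by 0.798 ± 2.29 percentage points, less than the spread between libraries (exact permutation p = 0.50, n = 4). ZNF genes had 2.49 ± 0.0728 peaks per gene with a peak, and other genes 1.78 ± 0.0216. ZBTB genes had 2.71 ± 0.226, ZSCAN and ZKSCAN genes 2.93 ± 0.115, and ZFP genes 2.73 ± 0.0943.

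Only 3 of the 280 expressed ZNF genes had no peak in any list. ZNF143, an activator of transcription, was at 10.0 and 9.70 FPKM with PBS and at 12.3 and 12.01 with the bacterium. ZNF185, whose product binds actin and has a LIM domain, was at 6.88 to 7.58 FPKM, and ZNF280C at 1.41 to 1.69 FPKM. ZNF143 and ZNF185 thus lay above the ZNF median of expression. Below 1 FPKM, the most highly expressed genes with no peak were ZNF84 (mean 0.891 FPKM) and ZNF837 (mean 0.772 FPKM). ZNF391 also had no peak. Its FPKM was 0.0530 and 0.0853 with PBS and 0.203 and 0.185 with the bacterium, too low to enter the expression test.

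ZNF peaks lay more often in the coding sequence than those of all other genes, as did the peaks of related finger families. Between 91.6% and 92.7% of the ZNF peaks in a list could be placed on the canonical transcript of their gene, and the midpoint of the peak gave its class. The coding sequence (CDS) held 64.1%, 65.4%, 63.6% and 63.2% of ZNF peaks. For other genes it held 44.9%, 45.8%, 43.2% and 43.0%. The classes did not overlap, and the difference was 19.9 ± 0.533 percentage points (SD, n = 4 libraries, exact permutation p = 0.125, the smallest possible). The window of 100 nt on either side of the stop codon held 9.52% ± 0.682 of ZNF peaks against 17.2% ± 0.102 of the others, and the 3′UTR 24.6% ± 1.29 against 34.5% ± 1.88. The last exon held 85.8% ± 1.11 of ZNF peaks against 65.6% ± 1.60. In ZBTB genes the CDS held 66.4% ± 2.44 of peaks and the stop codon window 9.42% ± 3.50, differences from ZNF genes within the spread between libraries (exact permutation p = 0.25 and 1, n = 4). In ZSCAN and ZKSCAN genes the CDS held 59.5% ± 3.10, below ZNF genes in each library, and the stop codon window 10.6% ± 1.86. ZFP genes stood further off, with 50.7% ± 2.98 of peaks in the CDS, below ZNF genes in each library. Their 3′UTR held 41.1% ± 4.1 of peaks, above ZNF genes in each library.

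Coverage by bases was also higher in the CDS of ZNF genes, but in the 3′UTR the order was reversed. Peaks covered 44.2% ± 3.83 (SD, n = 4 libraries) of the CDS bases of the 277 ZNF genes and 18.5% ± 1.37 of those of 10399 other genes. In the 3′UTR the values were 16.6% ± 1.18 and 12.7% ± 0.584, higher in ZNF genes although a smaller share of their peaks lay there. The 5′UTR was covered less in ZNF genes, at 9.02% ± 2.26 against 12.04% ± 2.12 in the others. The ZNF value was lower in each library, by 3.02 ± 0.474 percentage points (exact permutation p = 0.125, the smallest possible).

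Within the 242 genes with a finger array, coverage rose from the 5′ end to the end of the CDS and then dropped. The CDS before the fingers, which in many members encodes the KRAB domain, was covered over 32.9%, 39.6%, 36.8% and 33.5% of its bases. The finger array was covered over 47.5%, 55.2%, 52.0% and 45.1%, and the short CDS after the last finger over 66.8%, 70.7%, 66.2% and 63.5%. The 3′UTR was covered over only 16.5% to 19.4% of its bases. In each library the order was the same, with the CDS after the fingers highest and the array next. The treated and Control libraries overlapped in the array, where the means were 51.4% ± 5.48 in Control and 48.6% ± 4.88 in F. nucleatum (SD, n = 2 each, exact permutation p = 0.667).

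**Figure D2:**
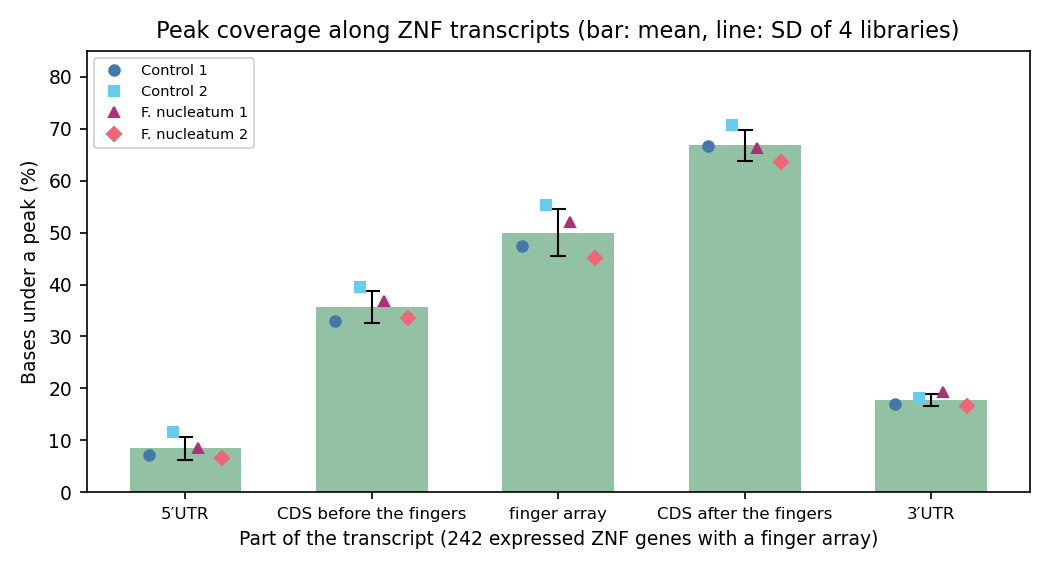
Share of bases under a peak (vertical axis, %) in 5 stretches of the spliced transcript (horizontal axis) of the 242 expressed ZNF genes with at least 3 fingers. Bars and lines are the mean and SD of 4 libraries and symbols are libraries; the CDS after the fingers lies from 63.5% to 70.7% and the finger array from 45.1% to 55.2%.

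The array began in the last exon in 207 of the 242 genes and lay within a single exon in 211. Over the first 775 nt from the start of the first finger the profile was nearly flat. At 25 nt after that start, 47.9%, 58.7%, 54.6% and 49.0% of the 242 transcripts were under a peak, and at 775 nt 52.5%, 57.4%, 53.4% and 47.1% of 233 transcripts. Further on it fell, to 24.6% to 27.5% of 169 transcripts at 1975 nt after that start. The median array was 958.5 nt long, so in many transcripts that distance lay beyond the fingers. Only transcripts long enough to reach it were counted. At 475 nt before the first finger the share was 20.5% to 27.5%. Coverage was highest just before the stop codon, at 65.4%, 68.2%, 64.9% and 59.3% of transcripts 125 nt before its end. In Control 2 it was higher still 175 nt before the end, at 70.2%. By 525 nt after it the share was 24.3% to 31.3%.

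Genes differed widely in how much of the array was covered. The quartiles of the mean coverage over 4 libraries were 25.1%, 58.3% and 83.8%. At least 90% was covered in 53 genes and no base in 21 genes. A peak touched the array in all 4 lists in 193 genes. The number of fingers moved little with coverage, which averaged 58.1% in 49 genes with 3 to 6 fingers, 52.2% in 79 genes with 7 to 10, 55.6% in 65 genes with 11 to 14 and 48.9% in 49 genes with 15 or more. Near-identical paralogs bear on these values, since reads from a shared stretch could be counted at either gene. Of the positions in the arrays, 5.01% began a run of 50 nt that was found in the transcript of another gene, and 32 of the 242 arrays had over 10% of such positions. The share was 5.16% at positions under a peak in all 4 lists and 4.87% at positions under none.

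Peak length did not set ZNF genes apart when all peaks were counted. The median length of exon blocks was 299, 300, 301 and 270 nt in the 4 libraries for ZNF peaks and 300, 325, 301 and 300 nt for the others. The ZNF median was lower by 14 ± 15.7 nt (SD, n = 4 libraries, exact permutation p = 0.25), less than the spread between libraries. Among peaks with a p of 1e-05 or lower, the ZNF medians were 568, 570.5, 570 and 511 nt, above those of other genes, which were 450, 479, 451 and 449 nt. The direction of the length difference therefore depended on the threshold. Fewer ZNF peaks met it, 49.4% to 53.1% of those in a list against 64.0% to 65.8% of the others.

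ZNF peaks were mostly a single exon block. The share was 85.2%, 82.7%, 86.3% and 86.3%, against 65.7%, 61.95%, 65.1% and 65.8% for other genes, a difference of 20.5 ± 0.701 percentage points (n = 4 libraries, exact permutation p = 0.125, the smallest possible). The shares in ZBTB genes (81.0% ± 1.91) and in ZFP genes (80.1% ± 0.696) were below those of ZNF genes in each library. The same held for ZSCAN and ZKSCAN genes (75.9% ± 2.4).

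GGAC was less frequent in ZNF peaks than in those of all other genes, with a smaller difference from the ZSCAN and ZKSCAN genes. It occurred at least once in 62.1%, 60.9%, 60.9% and 59.6% of ZNF peaks in the 4 libraries and in 73.7%, 75.03%, 73.7% and 73.1% of the peaks of other genes. The ZNF share was lower in each library, by 13 ± 1.08 percentage points (n = 4 libraries, exact permutation p = 0.125, the smallest possible). Per kb the ZNF peaks held 3.62 ± 0.127 GGAC and the others 5.34 ± 0.113. In ZSCAN and ZKSCAN genes 61.8% ± 3.89 of peaks held GGAC, a difference of -0.918 ± 3.48 percentage points that was less than the spread between libraries (exact permutation p = 0.75, n = 4), and the density was 3.43 ± 0.120 per kb. In ZBTB genes the values were 68.5% ± 3.09 and 4.10 ± 0.0832 per kb, above those of ZNF genes in each library. In ZFP genes 65.0% ± 6.11 of peaks held GGAC (exact permutation p = 0.50 against ZNF genes, n = 4). Their density was 4.55 ± 0.0879 per kb, above that of ZNF genes in each library. The wider DRACH consensus went the other way, with 23.4 ± 0.426 per kb in ZNF peaks and 21.9 ± 0.327 in the others, and with at least 1 match in 97.3% ± 0.718 and 95.7% ± 0.330 of peaks. The GC content of ZNF peaks was lower by 5.59 ± 0.198 percentage points, at 46.1% ± 0.645 against 51.7% ± 0.819. Motifs were counted on the strand of the gene only, and each GGAC followed by A, C or T is also a DRACH match.

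Within the arrays, AAACC was the most frequent DRACH word. It made up 23.2% of the DRACH matches that lay under a peak in all 4 lists or in none. Of the 1270 AAACC in the arrays, 858 (67.6%) began in a linker of 21 nt between neighbouring fingers, and 43.2% of the 1987 such linkers held it. Linkers with AAACC lay wholly under a peak in all 4 lists in 303 cases and in no list in 243 (55.5% of their sum), and linkers without it in 412 and 384 cases (51.8%). DRACH words differed in how often they were covered. Of the GAACT matches, 74.2% were under a peak in all 4 lists rather than in none, of TGACT 71.6%, of GGACT 70.9% and of AAACT 70.2%, against 58.2% of AAACC, 44.7% of TGACC, 43.9% of GGACC and 43.0% of GAACC and 58.8% of all DRACH matches. The 4 words ending in T named here were thus all above the share of all DRACH matches. Matches in an array are not independent, since 1 peak covers many, and no test was made.

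Array bases under a peak in all 4 lists held 2.61 GGAC and 21.9 DRACH per kb, and array bases under no peak 2.15 and 15.3. In the 3′UTR of the same genes the densities were 4.29 and 24.5 per kb under a peak in all 4 lists and 1.83 and 17.2 per kb under none. The CDS before the fingers went the other way for GGAC, with 4.63 per kb under peaks in all 4 lists and 6.04 per kb under none.

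ZNF regions lay on 21 chromosomes, with 400 (39.3%) on chromosome 19, where KRAB-type finger genes form large clusters. These 400 regions, in 152 genes, made up 25.3% of the 1581 regions of all genes on that chromosome. Chromosome 16 held 80 regions and chromosome 7 held 79. All 105 expressed ZNF genes assigned to chromosome 19 had a peak.

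Most genes had several regions. The median was 2 per gene, 87 names had 1 region and 50 had at least 5. ZNF469 had the most, 11 regions on a transcript of 13770 nt at 0.797 to 0.930 FPKM, of which 1 was in all 4 lists. ZNF81 had 10 regions and ZNF106, ZNF445 and ZNF646 had 9 each, of which 1, 1, 3 and 4 were in all 4 lists. In each of these 5 genes most regions were missing from at least 1 list.

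Of the ZNF regions in all 4 lists, the 5 longest are described here. ZNF518A had a region of 4614 nt in a single block (chr10:97916047-97920660), with p of 3.2e-89, 1e-112, 1e-106 and 2.5e-75. Its midpoint lay in the CDS in exon 6 of 7. ZNF292 had a region of 4168 nt (chr6:87967477-87971644) in its last exon, exon 8 of 8, with p between 1e-30 and 3.2e-17. ZNF721 had a region of 4005 nt in 2 blocks over all 23 of its fingers (chr4:434281-466427), with p between 5e-54 and 3.2e-38. ZNF146 had a region of 3647 nt in 4 blocks over all 10 of its fingers (chr19:36705683-36729645), and its lowest p was listed at 0 in all 4 lists. ZNF276 had a region of 3207 nt in 3 blocks (chr16:89800374-89807332), centred in the 3′UTR, with p between 1e-92 and 3.2e-53. The GGAC nearest the middle of the region is shown for 4 of these, in a window of 64 nt in the CDS and 28 nt in the UTR, with GGAC in capitals; in ZNF146 no GGAC window lay within the CDS:
ZNF518A, chr10:97918237-97918300, plus strand: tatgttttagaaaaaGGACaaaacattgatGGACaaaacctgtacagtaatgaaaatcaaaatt
ZNF292, chr6:87969552-87969615, plus strand: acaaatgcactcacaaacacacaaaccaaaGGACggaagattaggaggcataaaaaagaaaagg
ZNF721, chr4:437112-437175, minus strand: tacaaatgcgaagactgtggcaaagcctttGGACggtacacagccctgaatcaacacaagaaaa
ZNF276, chr16:89804176-89804203, plus strand: catcaggggcctGGACtcactGGACtct

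These genes spanned a wide range of expression. ZNF146 was at 58.0, 64.4, 67.1 and 64.2 FPKM, among the 5 highest of all ZNF genes, while ZNF292 was at 2.27, 2.63, 2.78 and 1.76 FPKM. ZNF518A was at 2.45 and 9.51 FPKM with PBS and at 7.42 and 2.44 with the bacterium, a spread within each group that exceeded the difference between them. The most highly expressed ZNF genes were ZNF593, which acts in ribosome assembly (95.3 to 116 FPKM), and ZNF207, which acts at kinetochores (94.98 to 115 FPKM). Both had a peak in every library. ZNF593 had a single peak per list, with p listed at 0 in 3 lists and at 1e-293 in F. nucleatum 2, and ZNF207 had 2 per list. ZNF664 (41.0 to 43.6 FPKM) and ZNF330 (32.7 to 34.2 FPKM) also had peaks in every library.

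The second question was whether F. nucleatum changed the m6A of ZNF genes. The number of ZNF peaks was 826 and 913 with PBS and 895 and 852 with the bacterium, so the groups overlapped. The means were 869.5 ± 61.5 and 873.5 ± 30.4 (SD, n = 2 each), a difference of 4 peaks (exact permutation p = 1; 2 libraries against 2 cannot go below 0.333). Relative input depth, estimated from 6 to 8 of 261 to 326 low genes whose ratio to Control 1 agreed within 0.005 on the log2 scale, was 1.11, 1.24 and 0.916 in the other 3 libraries. Control 2 and F. nucleatum 1, which had the most ZNF peaks, also had the highest estimated input depths. The part of depth was not tested, and the depth of the IP libraries was unknown. ZNF genes with a peak numbered 345, 357, 353 and 344.

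Fewer ZNF regions than other regions were found in all lists. Of the 1018 ZNF regions, 473 (46.5%) were in 4 lists, 121 in 3, 152 in 2 and 272 (26.7%) in 1. Of the 20983 regions of other genes, 51.8% were in 4 lists and 25.5% in 1. ZNF regions in all 4 lists had a median length of 748 nt and a median lowest p of 4e-15, and those in 1 list 91 nt and 0.0017. Regions of other genes in all 4 lists had medians of 571 nt and 6.3e-24. The share in all lists rested on how peaks were joined, since it was 20.2% of 1749 ZNF regions when peaks had to overlap by at least 50% of each, against 31.1% for all regions.

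Few ZNF regions followed the treatment, at a share near that of all regions. Regions present in both Control lists and neither F. nucleatum list, called lost, numbered 31 (3.05%), where the background over all 22001 regions was 2.64%. Regions present in both F. nucleatum lists and neither Control list, called gained, numbered 27 (2.65%), against a background of 2.38%. The lost regions lay in 27 genes and the gained regions in 26, with ZNF445, ZNF487 and ZNF530 holding both. For 28 of the lost and 25 of the gained regions the same gene had another region in a list of the other group. They were short, with medians of 181 and 210 nt, and weak, with a median lowest p of 0.00021 and 0.00022.

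The place and base content of lost and gained ZNF regions are given as a description, with no test of the difference. Of 26 lost regions that could be placed, 21 were centred in the CDS, 2 near the stop codon and 3 in the 3′UTR, and of 23 gained regions 12, 3 and 8. The mean GC content was 53.0% ± 11.9 (SD over 31 regions) in lost and 43.5% ± 8.28 (SD over 27) in gained regions. Among all other genes, 54.8% of 414 placed lost regions and 35.1% of 402 placed gained regions were centred in the CDS, and the mean GC content was 61.3% ± 11.4 and 46.2% ± 9.98, so the order was the one seen in ZNF genes. The mean GC content of all ZNF peaks was 46.6% with PBS in both lists and 45.6% and 45.5% with the bacterium, and that of other peaks 52.4% ± 0.0919 and 51.0% ± 0.240 (SD, n = 2 each, exact permutation p = 0.333, the smallest possible). GC content thus moved with the group in ZNF and other genes alike, and its part in the lost and gained regions was not tested. In the same libraries the CDS share of ZNF peaks was lower by 1.40 percentage points with F. nucleatum and the 3′UTR share higher by 1.64, and among other genes by 2.25 and 3.13 (exact permutation p = 0.333 for each, the smallest possible).

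The lost regions with the lowest p were in ZNF655, ZNF316, ZNF704 and ZNF407. The ZNF655 region (chr7:99156224-99156560, 300 nt, GC 71.3%) had p of 7.9e-11 and 5.2e-10 in the Control lists. All of its bases lay in annotated UTR exons, but fewer than 90% of them on the canonical transcript. ZNF316 lost a region of 180 nt over 3 fingers in its last exon, exon 9 of 9 (chr7:6693663-6693842, GC 74.4%, p of 0.0035 and 6e-07), and a region of 540 nt centred in the CDS in exon 5 (chr7:6682023-6683509, p of 8.5e-05 and 2.8e-06). ZNF704 lost a 3′UTR region of 361 nt (p of 0.00049 and 6.8e-07). The ZNF407 region of 330 nt (chr18:72776012-72776341, GC 67.9%, p of 6.6e-05 and 2.8e-06) lay in the CDS of exon 9 of 9. In each of these 4 genes at least 1 other region was in all 4 lists. FPKM was 10.7 and 10.5 with PBS and 12.6 and 11.7 with the bacterium for ZNF655, and 6.84 and 6.96 against 6.22 and 6.32 for ZNF316. The sequence at the GGAC nearest the middle is given, in capitals within 28 nt for ZNF655 and 64 nt for the CDS regions:
ZNF655, chr7:99156369-99156396, plus strand: gtgtaggtgacaGGACagcggccaggcc
ZNF316, chr7:6693729-6693792, plus strand: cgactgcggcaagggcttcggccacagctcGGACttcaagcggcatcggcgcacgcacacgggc
ZNF316, chr7:6682641-6682704, plus strand: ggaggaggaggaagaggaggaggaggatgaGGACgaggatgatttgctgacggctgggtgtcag
ZNF407, chr18:72776187-72776250, plus strand: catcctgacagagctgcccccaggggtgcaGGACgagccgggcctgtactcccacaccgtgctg

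The gained regions with the lowest p were in ZNF271P, ZNF860, ZNF397, ZNF239 and ZNF24. The ZNF271P region (chr18:32887447-32887805, 359 nt), in an exon of a pseudogene transcript, had p of 2.5e-11 and 5e-11 in the F. nucleatum lists. The other 4 were weaker. ZNF860 gained a region of 241 nt at its stop codon (chr3:32032419-32032659, p of 5.9e-07 and 0.00035), and ZNF239 a region of 240 nt there (chr10:44052062-44052301, p of 6.5e-06 and 3e-05). ZNF24 gained a 3′UTR region of 269 nt (chr18:32915279-32915547, GC 29.7%, p of 7.1e-06 and 0.00036) beside 3 regions in all 4 lists. ZNF397 gained a region of 360 nt in UTR exons (chr18:32837918-32838277, p of 5.6e-06 and 0.00031), with fewer than 90% of its bases on the canonical transcript. ZNF860 was at 0.789 and 0.739 FPKM with PBS and at 1.44 and 1.07 with the bacterium, while ZNF397 was at 2.88 to 2.99 FPKM in all 4. The ZNF860 region held 49 nt of coding sequence at its 5′ end, and its GGAC lay there and not in the UTR. Only ZNF860 and ZNF397 had a GGAC, shown in capitals within 28 nt:
ZNF860, chr3:32032411-32032438, plus strand: agaatccataccGGACagaaatcttaca
ZNF397, chr18:32838199-32838226, plus strand: ttcatggccatgGGACcacgcataaatg

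The third question was whether ZNF mRNA levels changed. No ZNF gene passed. Of 280 ZNF genes tested with limma on log2(FPKM + 1), 0 were higher and 0 lower at an adjusted p under 0.05, where the background over all 11088 genes was 0.667% higher and 0.135% lower. With p left unadjusted, 11 ZNF genes passed 0.05 upward (3.93%, background 7.03%) and 10 downward (3.57%, background 6.45%). The median log2 fold change was 0.004 for ZNF genes and 0.014 for all genes, and the ZNF values lay between -0.61 and 0.70. In 176 of the 280 genes the values of the groups overlapped. The same share was not counted over all genes, so this number is not read as a trait of ZNF genes. Fold changes on this scale understate the change of low genes.

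ZNF217, a gene amplified in several carcinomas whose product is found in repressor complexes with CoREST, had the lowest p. It was at 9.10 and 9.06 FPKM with PBS and at 13.7 and 12.9 with the bacterium, without overlap. Its log2 fold change was 0.51 ± 0.07 (SE, limma adjusted p = 0.0636), above the threshold. ZNF697 was at 1.12 and 0.987 FPKM with PBS and at 1.98 and 1.80 with the bacterium (log2 fold change 0.49 ± 0.10 SE, limma adjusted p = 0.165). ZNF512B was at 6.64 and 7.004 FPKM with PBS and at 4.84 and 4.99 with the bacterium (-0.40 ± 0.08 SE, limma adjusted p = 0.155). In these 3 genes the replicates lay close together and the groups apart.

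In the other 7 genes with a large fitted difference a single library stood away from the other 3. ZNF337 was at 1.67 FPKM in Control 1 and at 5.04 to 5.79 FPKM in the other libraries. ZNF34 was at 1.03 FPKM in Control 2 and at 3.31 to 3.57 FPKM in the others, and ZNF202 at 3.29 FPKM in Control 2 and at 9.37 to 12.1 FPKM in the others. Among the falls, ZNF106 was at 0.871 FPKM in F. nucleatum 2 and at 3.08 to 3.55 FPKM elsewhere. ZNF436 was at 0.911 FPKM in F. nucleatum 1 and at 2.24 to 2.76 FPKM elsewhere, and ZNF558 at 7.49 FPKM in Control 2 and at 2.24 to 3.10 FPKM elsewhere. ZNF133 was at 3.92 and 2.01 FPKM with PBS and at 1.66 and 1.38 with the bacterium. Its groups did not overlap, but Control 1 stood well above the rest. Without Control 1 its log2 fold change was -0.26, against -0.614 in the main fit. Without Control 1, limma called 2 ZNF genes higher (ZNF34 and ZNF202) and 1 lower (ZNF558), and without Control 2 it called ZNF25, ZNF337 and ZNF587 higher and ZNF133 lower. The background over all genes was 1.23% higher and 0.325% lower without Control 1, and 1.67% higher and 0.893% lower without Control 2, so the ZNF counts, out of 280, were near or below it. Of these 7 genes, ZNF25 had a single peak, in F. nucleatum 2, and the others had at least 1 m6A region in all 4 lists.

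A log2 fold change was available for the genes of 20 lost regions (median 0.04, from -0.27 to 0.36) and of 15 gained regions (median 0.08, from -0.35 to 0.35). Both ranges included 0.

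The corepressors through which KRAB-type ZNF proteins act were described beside them as a list of 16 genes, including TRIM28, the histone methyltransferase gene SETDB1, the HP1 genes and HUSH complex genes. Limma called 0 of 16 in either direction, and 1 (6.25%) was lower with p unadjusted, where the background was 6.45%. That gene was UHRF1, which recruits DNMT1 to hemimethylated DNA, at 31.5 and 29.1 FPKM with PBS and at 21.6 and 23.0 with the bacterium (-0.42 ± 0.07 SE, limma adjusted p = 0.106). TRIM28 was at 204 and 190 FPKM with PBS and at 178 and 182 with the bacterium (limma adjusted p = 0.414). It was also the only gene of the 16 without a peak, while the other 15 had a peak in all 4 lists. Among all expressed genes outside the ZNF family, 83.5% had a peak in some list and 7357 of 10808 in all 4.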

How the data were processed

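The members and gene lists below were chosen with earlier results of these data known. Per the labels, HCT116 cells had been treated with PBS or F. nucleatum, and groups and replicate numbers came from the sample titles. The authors trimmed reads (Trim Galore 0.3.3), aligned them to hg19 with HISAT2 2.1.0 and computed the deposited FPKM with StringTie from the input libraries; the submitters' processing notes name these tools. The 4 deposited peak lists give, per peak, exon block lengths and a score of at most 0.012 in ZNF peaks, read here as the authors' p-value. The methods of the study name MACS2, but the layout is that of exomePeak, and which program was used is not given in the sources used here. The lists hold no fold enrichment, and no depth or read number was given.

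Peaks were merged into regions as described and placed on canonical coding transcripts of GENCODE release 44 on GRCh37 where the transcript held 90% or more of their bases. No sequence of chromosome 8 is shown. Of the 373 ZNF names with a peak, 356 had such a transcript. Peak and expression tables were joined by symbol; 11 ZNF names with a peak were not in the expression table. The StringTie values of overlapping readthrough, antisense and near-identical genes are uncertain. Limma 3.58.1 (R 4.3.3; lmFit, then eBayes with trend) was fitted to log2(FPKM + 1) of 11088 genes averaging 1 FPKM or more, with Benjamini-Hochberg adjustment over all of them. It was tested on simulated data, as was the merging step. Libraries were compared by two-sided exact permutation tests over 2 against 2 libraries, and ZNF against other genes by swapping the classes within the 4 libraries; no p under 0.333 and 0.125 can be reached. Other steps ran in Python 3.11.15 with pysam 0.24.0. The genes and regions named were the 5 highest or lowest by each of these measures: fitted rise or fall, lowest p among lost and gained regions, length among regions in all 4 lists, number of regions, and mean FPKM with and without a peak. ZNF391 was also named because the study listed it. Genes named for another reason, such as those called without a library, were chosen after their values were seen. Alternatives changed the pseudocount, filter, normalization, variance model, replicate block, peak threshold, overlap, motif, placing rule and the libraries used.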

Additional observations from a re-analysis of the deposited data

How the results depend on the processing

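The share of expressed ZNF genes with a peak, the share of peaks with a single block and the share in the CDS stayed above those of other genes in all alternatives tried. Other results moved. With peaks of p at or below 1e-05 only, the difference in ZNF peaks per library was -0.5. The ZNF median peak length was then 97.6 nt above that of other genes. At that threshold 14 ZNF regions were lost (2.70%, against 2.59% of all regions) and 16 gained (3.08% against 2.25%). The share in all 4 lists was 54.0% of ZNF regions and 61.6% of all regions. With a reciprocal overlap of at least 50%, 42 ZNF regions were lost (2.40%, against 2.61% of all regions). There 51 were gained (2.92% against 2.65%), and 20.2% were in all 4 lists (against 31.1%). With DRACH in place of GGAC, the ZNF share was higher by 1.62 percentage points instead of lower. Leaving out 1 library at a time gave a difference of -39.5 to 47.5 peaks, 54 to 131 lost and 41 to 122 gained regions, since fewer lists then had to hold or lack a region, and 0 to 3 ZNF genes called higher and 0 to 1 lower. There the lone library of a group was assumed to vary like the other group. Without Control 2, the log2 fold change was -0.048 for ZNF34 (up to 1.12 without other libraries), -0.29 for ZNF202 (up to 1.32) and 0.34 for ZNF558 (down to -1.06). It was 0.12 for ZNF106 without F. nucleatum 2 (down to -1.17) and 0.14 for ZNF436 without F. nucleatum 1 (down to -0.84). Without Control 1 the log2 fold change kept its sign but shrank, from 0.705 to 0.116 for ZNF337 and from -0.614 to -0.26 for ZNF133. In the fit with the replicate block 0 ZNF genes were called in either direction, and 75 of all genes were higher and 15 lower against 74 and 15; deviations of same-numbered libraries from their group means correlated at 0.0243 across genes, so the numbers were not taken to pair the libraries. Unknown depth limits what can be said of regions in some lists only: a peak not listed is not shown to be absent.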
